A study of Mus musculus with 6 samples.

Results

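The family of miR-34 and miR-449 groups small regulatory RNAs whose 5p arms carry the same seed, the bases near the 5′ end with which a microRNA pairs to its target mRNAs. Its members were taken by name from a count table of 1028 mature microRNAs, and 8 rows were found, namely both arms of miR-34a, miR-34b, miR-34c and miR-449a, written without the mmu- prefix from here on. The rows with enough reads to be tested were mmu-miR-34a-5p, mmu-miR-34b-5p, mmu-miR-34b-3p, mmu-miR-34c-5p and mmu-miR-34c-3p. Of the 8 rows, 5 passed the low-count filter and were tested among 460 microRNAs. miR-449b and miR-449c were not analysed here. The names were proposed with earlier results of these data known, although the naming rule itself uses no measured value.

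Small RNAs were sequenced from a mouse epicardial line, called MEC or MCEC in the labels and grown in culture in high-glucose medium with serum. The epicardium is the outer cell layer of the heart. The KO group (3 libraries) received a lentivirus carrying an sgRNA against Hdac3, which encodes a histone deacetylase of repressor complexes, for CRISPR/Cas9 knockout. The EV group (3 libraries) received an empty-vector lentivirus, so lentiviral transduction is shared by both groups. The labels give no age, strain or clone of the line, and they do not state that each replicate came from its own culture. The p-values therefore describe the scatter of these libraries alone, part or all of which can be technical. The Hdac3 mRNA is not measured by small-RNA libraries, so the knockout was not checked.

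Transcription of Mir34a and of the Mir34b and Mir34c pair is activated by p53, the transcription factor that responds to DNA damage and other stress. The mature miR-34 microRNAs are known to repress mRNAs of cell-cycle and survival genes, among them Cdk6, Met and Bcl2, and thereby to favour cell-cycle arrest. In the mouse heart miR-34a is known to rise with age. miR-449 shares the seed, is made from an intron of Cdc20b and is known for its abundance in multiciliated epithelia.

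The mature sequences are shown because the shared seed defines the family, and they are given from RefSeq (GRCm38.p6), where 7 of the 8 rows were matched by name and miR-34c-5p was not. The seed, bases 2 to 8 counted from the 5′ end, is in capitals.
miR-34a-5p: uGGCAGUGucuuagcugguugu
miR-34b-5p: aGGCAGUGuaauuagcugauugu
miR-449a-5p: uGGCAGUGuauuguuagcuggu
miR-34b-3p: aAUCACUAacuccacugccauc
miR-34c-3p: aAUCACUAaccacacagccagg
miR-34a-3p: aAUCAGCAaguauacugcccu
miR-449a-3p: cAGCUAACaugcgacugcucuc
The first 3 share the seed GGCAGUG, which RefSeq's table lists for 4 mature mouse microRNAs, the other being miR-449c-5p. miR-34c-5p, for which no sequence was matched, is not counted among these 4. The opposite arms miR-34b-3p and miR-34c-3p share another seed, AUCACUA, held by no other mature microRNA in that table. Compared without gaps from the 5′ end, these arms match at 17 of 22 positions. miR-34a-5p and miR-449a-5p match at 15 of 22, and miR-34a-5p and miR-34b-5p at 11 of 22. miR-34c-5p, without a matched sequence, could not be compared with any member, so its likeness to miR-34b-5p is not given. No source used here states how a read that fits several microRNAs was counted, so counts of close members may share reads.

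The genes sit at 3 loci. Mir34a lies on the plus strand of chromosome 4 at 150068454 to 150068555 (GRCm38), and its last 17 bases overlap an exon of Gm37795, an unclassified transcript of GENCODE M21, on the same strand. Mir34b (51103562 to 51103645) and Mir34c (51103034 to 51103110) lie 451 bases apart on the minus strand of chromosome 9, inside an intron of Btg4, which runs on the opposite strand. Mir449a lies on the plus strand of chromosome 13 at 113037534 to 113037624, in an intron of Cdc20b. Hairpins of Mir34a and Mir34b are shown with both mature arms in capitals, because the balance of these arms is compared in the results.
Mir34a: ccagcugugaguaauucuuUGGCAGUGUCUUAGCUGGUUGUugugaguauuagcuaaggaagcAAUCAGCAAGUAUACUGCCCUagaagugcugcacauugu
Mir34b: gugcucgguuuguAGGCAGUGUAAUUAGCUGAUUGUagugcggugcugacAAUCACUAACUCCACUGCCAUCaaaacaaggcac

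The libraries held 11824881 to 13412774 counts. Levels are given as CPM, counts per 1000000 after each library total was multiplied by a TMM (trimmed mean of M-values) factor, so that 1 read was worth 0.0637 to 0.0892 CPM. The factors were 0.920, 0.986 and 0.945 for KO 1, KO 2 and KO 3, and 1.23, 1.04 and 0.919 for EV 1, EV 2 and EV 3. miR-21a-5p took 66.7% to 69.4% of the counts in KO and 63.0% to 70.1% in EV, with the lowest share in EV 1. KO 2 and EV 3 stood apart, with the red-cell microRNA miR-451a at 62.7 and 54.7 CPM, against at most 0.573 CPM in the other KO libraries and at most 2.45 CPM in the other EV libraries. Mesenchymal microRNAs such as miR-21a, miR-143 and miR-199a were abundant in every library. Of the 6 tested ones edgeR called 0 (0 at an unadjusted p under 0.05, 0 by DESeq2 or limma-voom), against 7.61% of all 460 tested microRNAs. The heart muscle marker miR-133a-3p had at most 1 read, while the muscle microRNA miR-1a-3p had 11 to 29 reads.

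All 5 tested miR-34 arms were higher in KO than in EV cells. miR-34b-5p rose 1.90-fold, miR-34b-3p 1.74-fold, miR-34a-5p 1.73-fold, miR-34c-5p 1.57-fold and miR-34c-3p 1.53-fold (edgeR quasi-likelihood test, two-sided, Benjamini-Hochberg adjusted p of 0.00220 to 0.0289, n = 3 each). Called means an adjusted p under 0.05 over all 460 microRNAs, of which 7.61% were called, 5% higher in KO. The median log2 change of the 5 arms was 0.79, against -0.01 for all tested microRNAs. In CPM every KO library lay above every EV library for each of the 5 arms, as for 15.2% of all tested microRNAs. The arms share hairpins, and Mir34b and Mir34c share a locus, so the 5 are not independent signals. Calls over the whole table were 23 higher and 12 lower, against 1 higher and 4 lower with library size alone as the scaling, and 18 higher and 25 lower with library sizes that leave out miR-21a-5p.

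**Figure D1:**
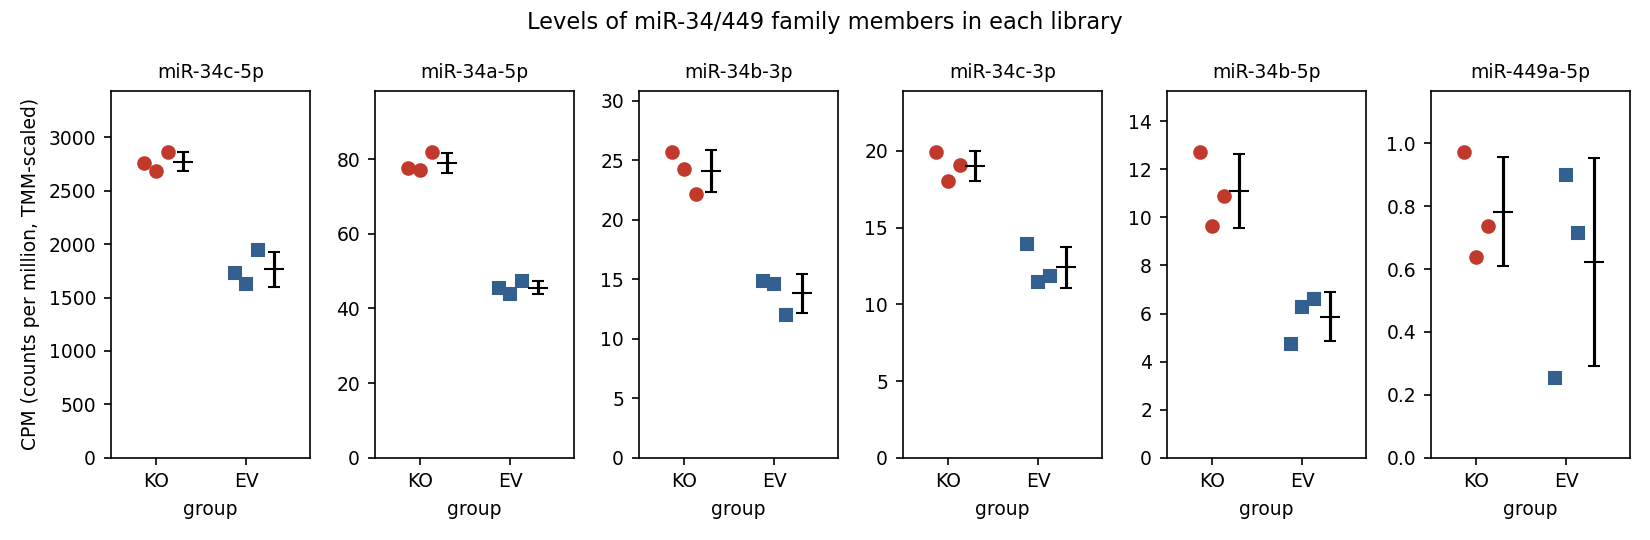
CPM (TMM-scaled, linear axes from 0) of 6 family members in the 3 KO libraries (red circles) and the 3 EV libraries (blue squares), with the mean and SD of each group in black. For the 5 miR-34 arms every KO library lies above every EV library, while for miR-449a-5p the groups overlap. Of all 460 tested microRNAs, 15.2% have every KO library above every EV library on this scale.

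miR-34c-5p was by far the most read member, in place 27 of 1028 by mean level. It had 2763, 2686 and 2864 CPM in KO 1, KO 2 and KO 3, against 1729, 1623 and 1940 CPM in EV 1, EV 2 and EV 3. The lowest KO library thus stood 1.38-fold above the highest EV library, and the EV libraries varied more (coefficient of variation 9.16%) than the KO libraries (3.22%). Means were 2771 ± 89.1 CPM in KO and 1764 ± 162 CPM in EV (SD, n = 3 each), a log2 change of 0.65 (SE 0.08, 95% interval 0.47 to 0.83, edgeR adjusted p = 0.00220). With 19881 or more reads in each library, counting error for miR-34c-5p was about 0.540% in KO and 0.665% in EV, far below the spread between libraries.

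KO 2 was the lowest KO library and EV 3 the highest EV library for miR-34c-5p, and these are the libraries with high miR-451a. Leaving them out therefore had to raise the log2 change of miR-34c-5p, which was then 0.75 (SE 0.11, edgeR adjusted p = 4.45e-06). Its SE was larger than the 0.08 with all libraries, so the smaller p is not a stronger result. In that fit all 5 arms were called, with 18.7% of 470 tested microRNAs called in either direction and 11.5% higher in KO.

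miR-34c-3p, the opposite arm of the same hairpin, was far scarcer. It had 19.9, 18.0 and 19.1 CPM in KO, against 13.9, 11.4 and 11.9 CPM in EV, and the groups did not overlap. Means were 19.0 ± 0.961 CPM in KO and 12.4 ± 1.35 CPM in EV (SD, n = 3 each), a log2 change of 0.61 (SE 0.14, 95% interval 0.30 to 0.93, edgeR adjusted p = 0.0289). It was the weakest of the 5 calls, and it was lost in each fit without EV 2, KO 1, KO 2 or KO 3, at adjusted p of 0.153, 0.123, 0.0648 and 0.0901 in that order.

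Both arms of miR-34b rose as well. miR-34b-3p had 25.7, 24.2 and 22.2 CPM in KO, against 14.8, 14.6 and 12.0 CPM in EV, with no overlap. The means of 24.0 ± 1.76 CPM in KO and 13.8 ± 1.60 CPM in EV (SD, n = 3 each) gave a log2 change of 0.80 (SE 0.15, 95% interval 0.47 to 1.13, edgeR adjusted p = 0.0107). miR-34b-5p, which carries the family seed, had 12.7, 9.65 and 10.9 CPM in KO, against 4.71, 6.28 and 6.60 CPM in EV. Its KO libraries again all lay above the EV libraries, with a coefficient of variation of 14.0% in KO and 17.2% in EV. Counting error alone gave 8.58% in KO and 11.5% in EV at its 121 to 157 reads in KO and 74 to 77 reads in EV. The mean over all libraries was 8.48 CPM for miR-34b-5p, against 2268 CPM for miR-34c-5p. Whether reads of miR-34c-5p entered the count of miR-34b-5p was not tested.

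The means of miR-34b-5p were 11.1 ± 1.55 CPM in KO and 5.87 ± 1.01 CPM in EV (SD, n = 3 each), and its log2 change of 0.92 (SE 0.18, 95% interval 0.52 to 1.33, edgeR adjusted p = 0.0136) was in place 2 among the 23 microRNAs called higher. Neither miR-34b arm was called without EV 2 or without KO 1, with adjusted p of 0.0612 and 0.0554 for miR-34b-3p and of 0.0599 and 0.0712 for miR-34b-5p.

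miR-34a-5p, the member from chromosome 4, rose with little spread between libraries after TMM scaling. It had 77.5, 77.2 and 82.0 CPM in KO, against 45.5, 43.9 and 47.3 CPM in EV, so that the lowest KO library was 1.63-fold above the highest EV library. Means were 78.9 ± 2.67 CPM in KO and 45.6 ± 1.69 CPM in EV (SD, n = 3 each), a log2 change of 0.79 (SE 0.10, 95% interval 0.57 to 1.02, edgeR adjusted p = 0.00220). Its coefficients of variation, 3.38% in KO and 3.71% in EV, were close to the counting error of 3.20% in KO and 4.13% in EV. The call held in every fit that left out 1 library, as it did for miR-34c-5p.

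**Figure D2:**
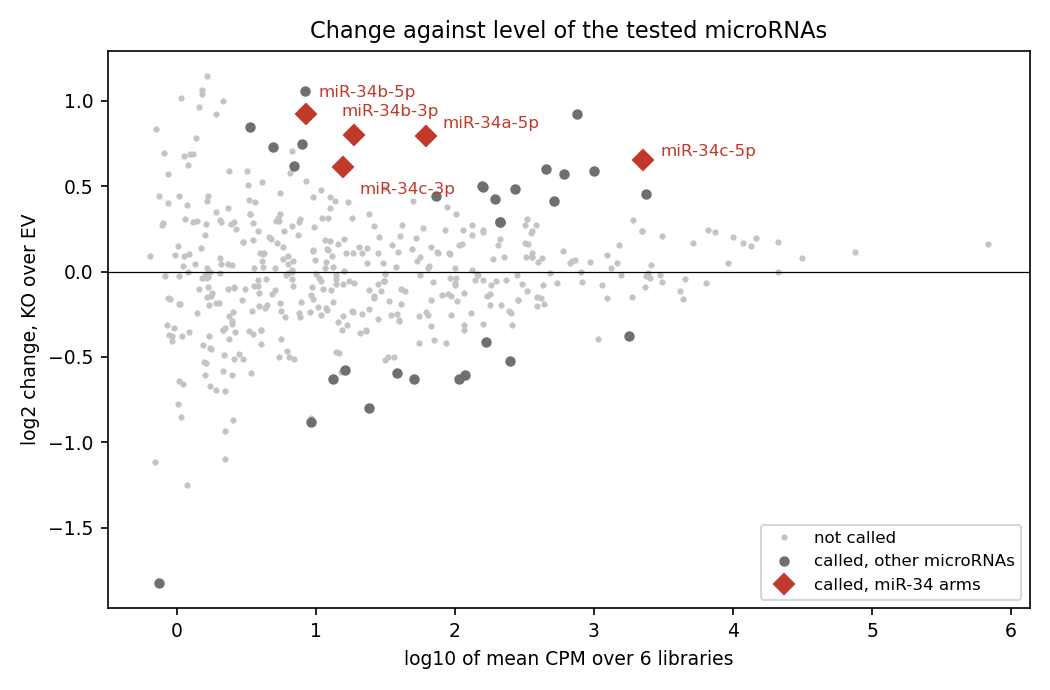
Log2 change of KO over EV (linear axis) against the log10 of mean CPM over the 6 libraries for the 460 tested microRNAs. The 5 miR-34 arms (red diamonds) lie between 0.61 and 0.92 across more than 2 units of log10 CPM, among 30 other called microRNAs (dark grey) and those not called (light grey).

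The remaining members were at the edge of detection. miR-449a-5p had 12, 8 and 9 reads in KO, against 4, 11 and 8 reads in EV, or 0.783 ± 0.172 CPM in KO and 0.622 ± 0.331 CPM in EV (SD, n = 3 each). The groups overlapped (exact two-sided permutation test, p = 0.6). In the fit without a filter on low counts, in which 5.45% of 1028 microRNAs were called, its log2 change was 0.34 with a 95% interval of -0.72 to 1.41 (edgeR adjusted p = 0.777). That interval includes no change as well as changes as large as those of the miR-34 arms, so a difference was not detectable at this depth. miR-34a-3p had 0, 1 and 1 reads in KO and 0 in each EV library. miR-449a-3p had 0 reads in each KO library and 0, 0 and 2 in EV. A count of 0 allows up to 3 reads, or 0.191 to 0.268 CPM in these libraries, by counting error alone, so neither arm gave a fold change.

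Summed over all 8 rows, the family took 0.267%, 0.278% and 0.283% of the counts in KO 1, KO 2 and KO 3, against 0.222%, 0.176% and 0.186% in EV 1, EV 2 and EV 3. The sum is nearly the level of 1 member, since miR-34c-5p made up 95.4% ± 0.110 of the family's reads in KO and 95.7% ± 0.336 in EV (SD, n = 3 each). miR-34a-5p made up 2.72% ± 0.0374 in KO and 2.48% ± 0.124 in EV. Adaptor ligation and gel selection favour some small RNAs over others, so shares between members are shares of reads, not of molecules.

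The ratio of members within a library does not depend on how libraries are scaled, and it was used to ask whether the members rose alike. The plot of these ratios shows each library. The log2 ratio of miR-34a-5p to miR-34c-5p counts was -5.16, -5.12 and -5.13 in KO, against -5.25, -5.21 and -5.36 in EV. KO libraries all lay above EV libraries, by 0.14 on average (95% interval 0.01 to 0.27, from the pooled SD). The exact two-sided permutation test gave p = 0.1, the smallest that 3 against 3 allows, and an adjusted p of 0.3 over the 3 pairs compared.

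For miR-34b-5p over miR-34c-5p the groups overlapped, with log2 ratios of -7.76, -8.12 and -8.04 in KO and -8.52, -8.01 and -8.20 in EV (difference 0.27, 95% interval -0.24 to 0.78, exact permutation p = 0.3, adjusted 0.45). For miR-34b-5p over miR-34a-5p they overlapped too, and the difference was 0.13 (95% interval -0.40 to 0.66, exact permutation p = 0.6, adjusted 0.6). With 3 libraries against 3 these tests could not pass the threshold, so they do not show that the members rose alike. The intervals of both ratios with miR-34b-5p include 0 and differences of up to 0.78 on the log2 scale. That of miR-34a-5p over miR-34c-5p lies just above 0, but no interval was adjusted for the 3 pairs compared.

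**Figure D3:**
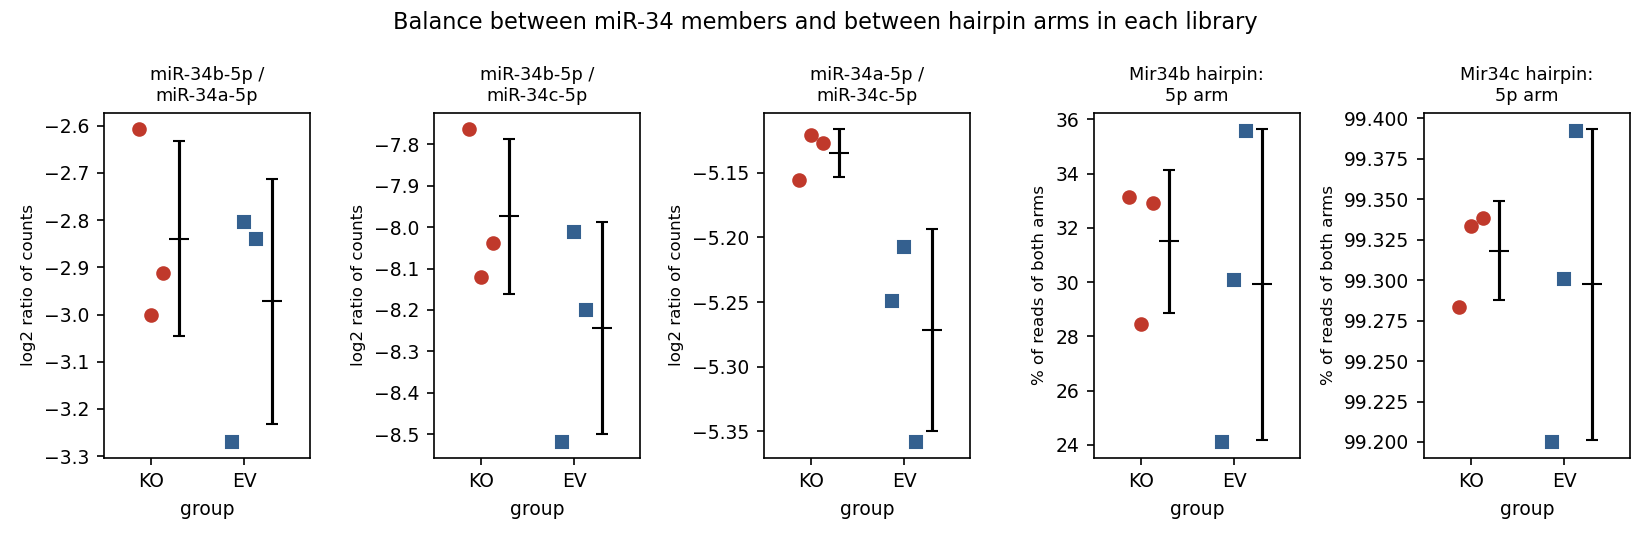
Left to right, the log2 ratio of counts for 3 pairs of 5p members and the percentage of both arms' reads that came from the 5p arm of Mir34b and of Mir34c, in 3 KO libraries (red circles) and 3 EV libraries (blue squares), with mean and SD in black; the axes do not start at 0. Groups overlap in each panel except miR-34a-5p over miR-34c-5p, where the KO libraries lie 0.14 higher on average.

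The hairpins differed in which arm was read, and for Mir34b and Mir34c the groups overlapped. The Mir34b hairpin gave mostly its 3p arm. Its 5p arm took 33.1%, 28.5% and 32.9% of the reads of both arms in KO, against 24.1%, 30.1% and 35.6% in EV, with EV 1 and EV 3 at the extremes. The Mir34c hairpin gave almost only its 5p arm, at 99.3% ± 0.0304 in KO and 99.3% ± 0.0961 in EV (SD, n = 3 each), or 139 to 150 reads of miR-34c-5p per read of miR-34c-3p in KO and 124 to 163 in EV. Mir34a gave 99.9% to 100% of its reads from the 5p arm in KO and 100% in each EV library.

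The difference between the changes of both arms was tested with limma's diffSplice over 133 hairpins with both arms tested. It was 0.15 (SE 0.23, adjusted p = 0.998) for miR-34b and 0.05 (SE 0.16, adjusted p = 0.998) for miR-34c, on the log2 scale, 5p minus 3p. Of the 133 hairpins 0% passed in this fit (6 had an unadjusted p under 0.05), and 1 hairpin, not of this family, passed without EV 3 (0.725%) or without EV 3 and KO 2 (0.735%).

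The scaling changed the calls of the arms, while every arm stayed higher in KO under each scaling tried. The TPM values deposited by the authors use the library total alone. On that scale miR-34c-5p had 2541, 2648 and 2707 TPM in KO, against 2120, 1681 and 1783 TPM in EV. miR-34a-5p had 71.3, 76.1 and 77.5 TPM in KO, against 55.8, 45.5 and 43.5 TPM in EV. Its EV libraries thus varied more than on the TMM scale (48.2 ± 6.59 TPM, SD, n = 3). The lowest KO library stood 1.28-fold above the highest EV library for miR-34a-5p. Each of the 5 arms again had all KO libraries above all EV libraries, as 5.43% of tested microRNAs did, against 15.2% on the TMM scale. The gap was narrow for miR-34c-3p, with 17.8 TPM in the lowest KO library and 17.1 TPM in EV 1, and EV 1 was the highest EV library for all arms except miR-34b-5p.

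With library size alone no arm was called by edgeR. The log2 changes were then 0.64 (SE 0.15) for miR-34a-5p, 0.78 (SE 0.18) for miR-34b-5p and 0.50 (SE 0.11) for miR-34c-5p, each at adjusted p = 0.0639. They were 0.63 (SE 0.21, adjusted p = 0.150) for miR-34b-3p and 0.44 (SE 0.20, adjusted p = 0.260) for miR-34c-3p. Of the 5 arms, 4 had an unadjusted p under 0.05 in that fit, miR-34c-3p being the exception. No share of all tested microRNAs is given for that limit, so this count cannot be read against it and replaces no call. The median log2 change of all microRNAs moved to -0.16 in that fit, and relative to it miR-34c-5p stood at 0.66 and miR-34a-5p at 0.80. Only 1.09% of the 460 microRNAs were called with this scaling, 0.217% higher in KO.

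The share of all tested microRNAs called in either direction, against which the arms' calls are read, differed between settings. It was 7.61% with median-of-ratios factors, 9.35% with library sizes that leave out miR-21a-5p, 11.3% with DESeq2, 8.26% with limma-voom, 17.6% with the 10 CPM filter, 7.91% without the 5 most abundant microRNAs and 7.39% with a replicate block. It was 3.34%, 3.16% and 3.98% without KO 1, KO 2 and KO 3, and 4.84%, 3.33% and 12.3% without EV 1, EV 2 and EV 3. miR-34a-5p and miR-34c-5p were called in every one of these settings.

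**Figure D4:**
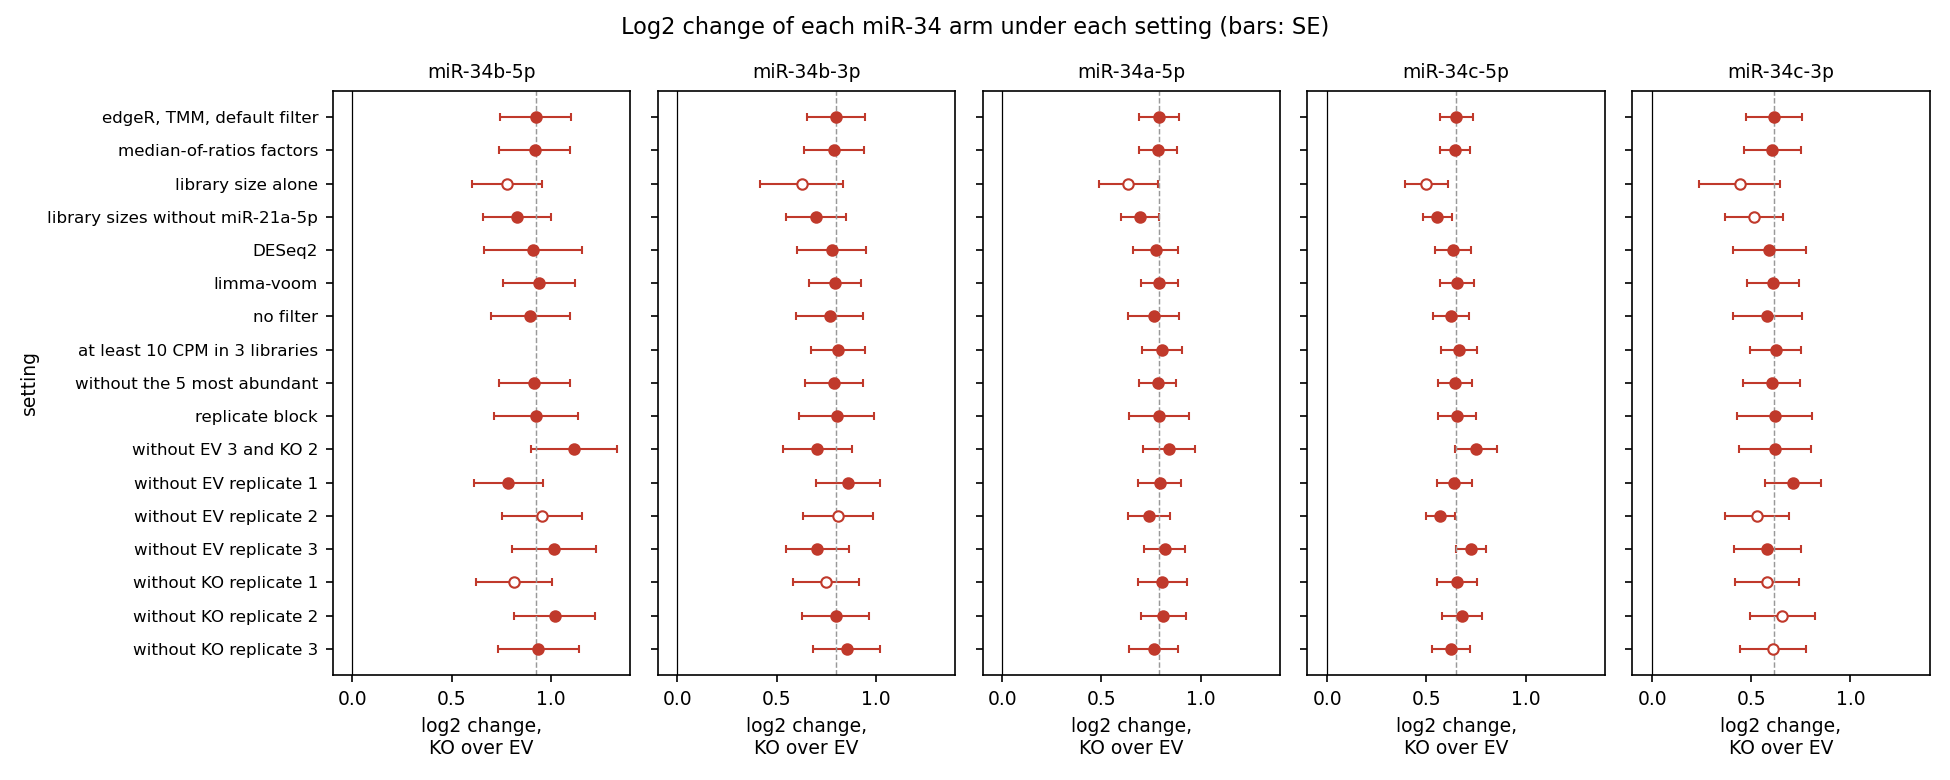
Log2 change of KO over EV with its SE (bars) for each miR-34 arm under the setting named at the left, filled where the adjusted p was under 0.05 and open where it was not; the dashed line is the value with TMM factors and all libraries. All values lie above 0, all 5 arms are open with library size alone, and miR-34b-5p has no value under the 10 CPM filter.

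In the authors' deposited table, which lists 78 microRNAs, 42 of them with a positive log2 change, all 5 arms appear as higher in KO. Its log2 changes are 0.86 for miR-34b-5p, 0.77 for miR-34a-5p, 0.75 for miR-34b-3p, 0.63 for miR-34c-5p and 0.57 for miR-34c-3p. By the adjusted p of the authors' deposited table, miR-34a-5p stands in place 2 and miR-34c-5p in place 5. These come from the same libraries and give no independent support.

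Other microRNAs linked to p53, by transcription or by processing, were described beside the family. A list of 12 was used, of which 11 were in the table and 10 were tested. edgeR, DESeq2 and limma-voom each called 0 of the 10. Of all tested microRNAs they called 7.61%, 11.3% and 8.26% in that order, so 0 of 10 is near those shares and shows little. By edgeR 3 of the 10 had an unadjusted p under 0.05, miR-16-5p and miR-192-5p higher in KO and miR-149-5p lower. No share of all tested microRNAs is given for that limit, so this count shows little. The median log2 change of the 10 was 0.16, against -0.01 for all tested microRNAs. miR-143-3p, the most abundant, had 78255 ± 3365 CPM in KO and 72335 ± 1119 CPM in EV (SD, n = 3 each; log2 change 0.11, SE 0.10). miR-16-5p, which restrains cell-cycle genes, had 352 ± 26.8 CPM in KO and 292 ± 15.2 CPM in EV (log2 change 0.27, SE 0.08, edgeR adjusted p = 0.0731). The p53 targets miR-192-5p and miR-194-5p stood at 0.16 (SE 0.07, edgeR adjusted p = 0.187) and 0.27 (SE 0.13, edgeR adjusted p = 0.254). The other tested members lay on both sides of 0, with miR-215-5p at 1.02 (SE 0.48, edgeR adjusted p = 0.239), miR-15a-5p at 0.31 (SE 0.19) and miR-145a-5p at 0.16 (SE 0.13), but miR-149-5p at -0.47 (95% interval -0.82 to -0.12), miR-200c-3p at -0.33 (SE 0.39) and miR-107-3p at -0.26 (SE 0.13). miR-215-5p rested on 13, 23 and 17 reads in KO, against 5, 14 and 8 reads in EV, and its groups overlapped in CPM. miR-200c-3p had 8 to 16 reads in each library. The difference between the changes of the p53-linked microRNAs and those of the miR-34 arms was not tested.

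Of the remaining marker lists, only the epithelial one had called members. Of 6 epithelial microRNAs 4 were tested and 2, miR-200a-3p and miR-200b-3p, fell, with log2 changes of -0.88 (SE 0.15, edgeR adjusted p = 0.00898) and -0.80 (SE 0.13, edgeR adjusted p = 0.00777). The summed level of the 6 was 25.3 to 27.3 CPM in KO and 41.4 to 50.3 CPM in EV. miR-141-3p and miR-205-5p were near 0 in both groups, with 0 reads in every KO library, against 1, 1 and 2 reads of miR-141-3p and 0, 3 and 0 reads of miR-205-5p in EV. The part of the epithelial markers in the rise of miR-34 was not tested. Of the 2 blood, 2 endothelial, 2 neural and 2 muscle microRNAs tested, edgeR, DESeq2 and limma-voom each called 0. They called 7.61%, 11.3% and 8.26% of all tested microRNAs in that order, so 0 of 2 in a list shows little about those cells. The 2 muscle ones alone had an unadjusted p under 0.05, for which no share of all tested microRNAs is given. The most abundant of each list, beside miR-451a for blood, were miR-126a-3p (endothelial, log2 change -0.17, SE 0.12), miR-9-5p (neural, -0.05, SE 0.57) and miR-206-3p (muscle, -0.35, SE 0.13). The other tested muscle microRNA, miR-1a-3p, went the other way (log2 change 1.06, SE 0.30, edgeR adjusted p = 0.0657). It had 29, 22 and 25 reads in KO, against 13, 11 and 14 reads in EV. miR-9-5p had 19.1, 57.1 and 15.2 CPM in KO, against 11.3, 32.6 and 51.4 CPM in EV, highest in KO 2 and EV 3 like miR-451a. In a bulk sample, fewer cells of a type and less RNA per cell cannot be told apart.

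The microRNAs whose levels ran most closely with miR-34c-5p were found by Pearson's r of log2 CPM over the 6 libraries, among 457 others with reads in every library. miR-34a-5p was in place 2 with r = 0.988, although it comes from another chromosome, and its relatives miR-34c-3p, miR-34b-5p and miR-34b-3p followed in places 20, 24 and 36 with r of 0.932, 0.925 and 0.876. Outside the family the first 5 were miR-500-3p (r = 0.995), miR-322-5p (0.982), miR-216a-3p (0.978), miR-503-5p (0.973) and miR-532-5p (0.972). miR-322 and miR-503 come from an X-linked cluster and restrain the cell cycle, and miR-500 and miR-532 share an intron of Clcn5. Of these 5, 4 were called higher in KO, while miR-216a-3p, at 1.91 ± 0.0503 CPM in KO and 0.992 ± 0.226 CPM in EV, was not (log2 change 0.96, SE 0.29, edgeR adjusted p = 0.0785). These r values rest on 6 points that fall into the KO and EV groups and share scaling factors, and they are given as a description.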

How the data were processed

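Small-RNA libraries were made from Trizol-extracted RNA with a NEBNext kit and gel selection, per the labels' protocols. Bowtie, DESeq 1.8.3 and the mm10 build are named in the submitters' processing notes, and no source used here gives the counting rules. The authors deposited whole-number counts per mature microRNA. The deposited TPM equal each count per 1000000 of the library total to within 3.49e-10, with no length term. The authors' deposited comparison table gives a mean normalized count (a signal), the log2 fold change and p-values before and after adjustment.

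Counts were fitted with edgeR 4.0.16 in R 4.3.3 (TMM, filterByExpr with minimum count 10 and total 15, quasi-likelihood F test, Benjamini-Hochberg at 0.05 over all 460 tested microRNAs). The SE is the log2 change divided by the square root of F. Arms were compared with limma 3.58.1 (voom, diffSplice), and member ratios with exact permutation tests over libraries. DESeq2 1.42.0 and limma-voom were alternatives. The log2 changes recovered by edgeR, limma-voom and diffSplice were checked on simulated data, while DESeq2 and the permutation tests were not. Within each group every pair of libraries differed by more than counting noise, with a chi-square of at least 9040 on 459 degrees of freedom.

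The members, lists and alternatives were chosen with earlier results of these data known. Every row that the name rule found is named, with the called and the most abundant member of each list and the 5 microRNAs most like miR-34c-5p. Intervals include the scatter between libraries. The floors for counts of 0 cover counting error only, as PCR copies were counted as reads.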

Additional observations from a re-analysis of the deposited data

How the results depend on the processing

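The direction of all 5 miR-34 arms held in each of the settings in which they were tested. miR-34a-5p and miR-34c-5p kept their calls in 15 of 16 alternatives, miR-34b-3p in 13 of 16, miR-34b-5p in 12 of 15 and miR-34c-3p in 10 of 16 (adjusted p up to 0.260). With library size alone 0 arms were called, 5 microRNAs in all, and the arms' median log2 change was 0.63. The number of microRNAs called was 56 without a filter and 88 without EV 3 and KO 2. With 1 library left out it ran from 15 to 59, the number of called arms from 2 (without EV 2 or KO 1) to 5, and the median from 0.72 to 0.80. Also with 1 library left out, the arm difference ran from -0.085 to 0.33 for miR-34b and from -0.061 to 0.15 for miR-34c, both negative without EV 1, and miR-34b-5p over miR-34a-5p from -0.017 to 0.22, also negative without EV 1. Without EV 3 and KO 2 together they were 0.43, 0.13 and 0.28. The causes were not tested. With library sizes that leave out miR-21a-5p, 4 arms were called, and miR-34c-3p was not (adjusted p = 0.0632). With the 10 CPM filter miR-34b-5p and the miR-34b arm difference gave no value.

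Same-numbered KO and EV libraries showed correlations of their deviations from the group means of 0.26, -0.11 and -0.25. These values gave no sign of pairing by number, but with 3 libraries per group they cannot exclude it. A replicate block gave 34 calls against 35 without it and called all 5 arms. Of the KO libraries 1, KO 1, correlated best with the EV library of its own number. At 4 to 12 reads, the counting error of miR-449a-5p was 32.5% in KO and 38.5% in EV, beside a spread between libraries of 22.0% in KO and 53.2% in EV.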
